A study of Aedes aegypti with 48 samples.

Results

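The Wnt signaling genes described here are 36 of the 19804 gene identifiers counted in females of the mosquito Aedes aegypti. They are the genes that an enrichment list of the study places under the KEGG term Wnt signaling pathway among genes lower in the Cyc knockout at ZT1. That list counts 37 genes of the 77 under the term, and 1 of them is not analysed here because its identifier could not be read. The values that chose the members are therefore those of the knockout against the wild type at ZT1, and that contrast is given below as a description, with no test. All 36 members had counts in the files and passed the filter on low counts at each time point. The files pair no member with a gene name, so each gene is described by its identifier and by the GO and KEGG terms that the study's enrichment lists give it. Those lists were shortened in the form used here, so a term that a gene lacks says nothing about that gene.

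Wnt proteins are secreted ligands that bind Frizzled receptors and LRP co-receptors at the cell surface. Without ligand, a destruction complex of scaffold proteins and kinases marks beta-catenin for ubiquitin ligases. With ligand, beta-catenin reaches the nucleus and acts with TCF and coactivators, in place of corepressors. Other branches run through small GTPases and Jun kinase to cell shape and planar polarity, and through phospholipase C and calcium to calcineurin and calmodulin-dependent kinases. The pathway is best known from Drosophila, in patterning and in the upkeep of gut and germline stem cells, and several of its kinases and ubiquitin ligase parts also serve the Hedgehog, Hippo and circadian pathways.

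Whole-body RNA was sequenced from pools of 10 Liverpool strain females, sampled as adults 5 days old that were reared at 27 °C with 12 h light and 12 h dark. The knockout group (KO, AeCyc-/-) is a line without functional cycle (Cyc), a core activator of the circadian clock, and the wild type (WT) carried no knockout. Both were sampled at ZT1, ZT5, ZT9 and ZT13, hours after lights on, with 6 libraries in each of 8 groups. The labels name no further treatment. The light cycle had dawn and dusk transitions, and adults were offered sucrose. The paper's rearing notes also name blood feeding of adult females, and do not say whether the sampled females were fed. KO and WT are separate lines, so the knockout and the background of the line cannot be told apart.

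Each library held between 10670669 and 33232780 counts on genes. The library labelled KO ZT13 replicate 1 held for every gene the same counts as WT ZT9 replicate 2, so it was left out and 47 libraries were used. Cyc (AAEL002049) was lower in KO than in WT by 0.92, 1.04 and 0.37 on the log2 scale at ZT1, ZT5 and ZT13. At ZT9 its levels overlapped, with 25.2 to 33.5 CPM in KO and 27.5 to 33.3 CPM in WT (log2 fold change -0.11, adjusted p = 0.281, quasi-likelihood test of edgeR). An opsin (AAEL005621) was read at 0.159 to 18.3 CPM, where the lowest value rests on few reads. The odorant binding protein OBP11 (AAEL002587) was read at 38.8 to 71 CPM. In whole bodies, fewer cells of a type and less RNA per cell cannot be told apart.

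Levels are given as CPM, the count of a gene scaled to the size of its library and to its TMM factor. For groups of 6 libraries they are written as the lowest over the median to the highest. Gene lengths were not used, so CPM compare libraries for 1 gene and not 1 gene with another. Changes are log2 fold changes of KO over WT with their standard error (SE), which is the size of the change over the square root of the F statistic of edgeR's quasi-likelihood test, fitted over all genes. A gene is called at a Benjamini-Hochberg adjusted p below 0.05 over all genes tested, and the adjusted p values below are from that test.

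At the time points that did not choose them, the members were lower in KO or not called, and none was called higher. At ZT5, 15 of 36 members were called lower, against 15.5% of all genes tested. At ZT9 the number was 20, against 16.7% of all genes, and at ZT13 it was 23, against 17%. The share of all genes called higher was 15.5% at ZT5, 16.3% at ZT9 and 18.6% at ZT13. These calls held 0 members. The changes were small. The median log2 fold change of the members was -0.16 at ZT5, -0.27 at ZT9 and -0.20 at ZT13. For all genes tested it was 0.01, -0.00 and 0.00. The fitted change lay below 0 for 33 members at ZT5, and for all 36 both at ZT9 and ZT13. The shares of all genes tested that lay below 0 were 48.6%, 50% and 49.6%. Below 0 at all 3 time points were 33 members and 35.5% of all genes. The members share a pathway term and libraries, so they do not count as independent observations. They were also chosen as lower in KO at ZT1, and the same lines are compared at each time point. The shares of all genes, which were not chosen by direction, are therefore no neutral comparison for them.

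**Figure D1:**
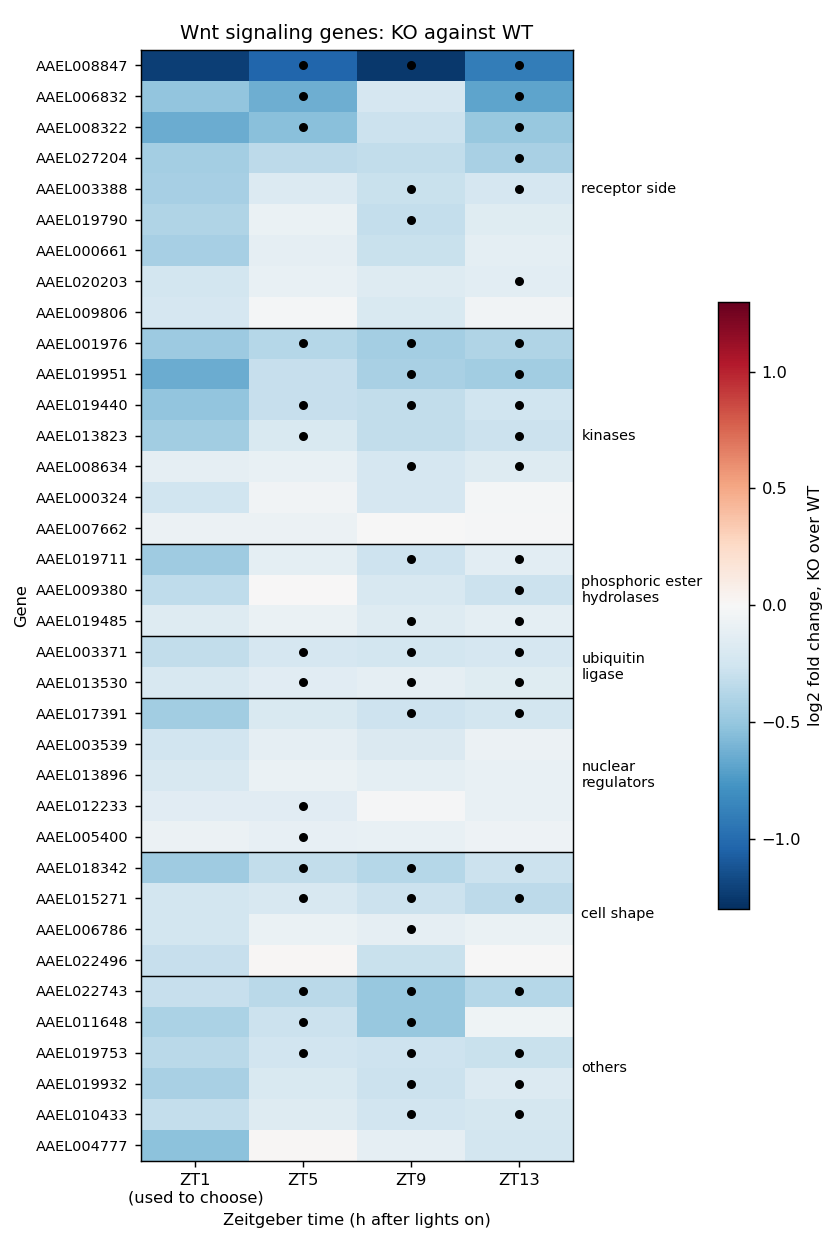
Log2 fold change of KO over WT (color) for the 36 genes (rows, grouped by role) at ZT1, ZT5, ZT9 and ZT13 (columns), with a dot where the gene was called lower at ZT5, ZT9 or ZT13. No member was called higher, and the ZT1 column, which chose the members, carries no dots.

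Over ZT5, ZT9 and ZT13, 9 members were called lower at every time point, 12 at 2, 7 at 1 and 8 at 0. Of all 11458 genes tested at the 3 time points, 8.74% were called lower at each. The 9 members were AAEL001976, AAEL003371, AAEL008847, AAEL013530, AAEL015271, AAEL018342, AAEL019440, AAEL019753 and AAEL022743. They belong to 5 of the 7 role groups used here, which were set up from the terms. The stricter reading, that every KO library lay below every WT library, held at ZT5 for 8 members (6.99% of all genes), at ZT9 for 8 (5.07%) and at ZT13 for 14 (8.89%). It held at the 3 time points for AAEL008847, AAEL013530, AAEL015271 and AAEL019753. The share of all genes for which it held at the 3 time points was not computed, so this number has no background beside it.

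At ZT1, which chose the members, their median log2 fold change was -0.34, with a range from -1.22 to -0.08. Just inside the list were AAEL005400 and AAEL007662, each at -0.08. Just outside it, among genes that other lists of the study give under the same term, were AAEL009614 at -0.06, AAEL019756 at -0.08 and AAEL004686 at -0.10.

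The count at ZT9 depended on single libraries. It fell from 20 to 10 without KO ZT9 replicate 6, to 11 without KO ZT9 replicate 4 or replicate 5, to 12 without WT ZT9 replicate 1, 3 or 5, and to 13 without WT ZT9 replicate 2 or 6. Without WT ZT9 replicate 4 it rose to 26. At ZT5 the count lay between 10 and 21 and at ZT13 between 19 and 25 with 1 library left out. With the library labelled KO ZT13 replicate 1 put back, the count at ZT13 was 13. The share of all genes called lower was not computed for these fits, so whether it moved alike is not known.

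The scaling also bears on these counts. TMM factors, which correct for differences in RNA composition, ran from 0.863 to 1.08 in KO (median 0.962) and from 1.00 to 1.10 in WT (median 1.04). With library totals alone, a setting chosen after seeing the data, the median of all genes moved to -0.08, -0.12 and -0.09 at these times, and the share of all called genes that were lower in KO rose from 49.9% to 71.2%, from 50.5% to 75.8% and from 47.7% to 69.9%. The members called lower were then 22, 29 and 26, with medians of -0.24, -0.38 and -0.28. Another scaling shifts all genes of a contrast nearly alike, so it changes the counts and hardly the distance between the members and all genes. This follows from the arithmetic of 1 factor per library, so the kept distance is no test of RNA composition.

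Within a group, the levels of the members differed from library to library. For each library of ZT5, ZT9 and ZT13, the log2 CPM of each member was set against the mean of its own group, and the median over the 36 members was taken. This median ran from -0.256 to 0.174 in 17 KO libraries and from -0.193 to 0.0984 in 18 WT libraries. In KO ZT9 replicate 5, the lowest, 34 of 36 members were below their group mean, and in KO ZT9 replicate 3 it was 2 of 36. Over the KO libraries the median went with the log2 TMM factor, also set against the mean of its group (Pearson's r = 0.941, Spearman's rho = 0.931, 17 libraries), and without the 2 libraries farthest from the median factor r was 0.949. In WT the values were r = 0.634 and rho = 0.385 over 18 libraries, and r was 0.149 without the 2 farthest, so the WT relation rests on those. These are descriptions of a score over chosen genes, and CPM are computed with the same factor. The part of RNA composition in the KO effect on the members was not tested.

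**Figure D2:**
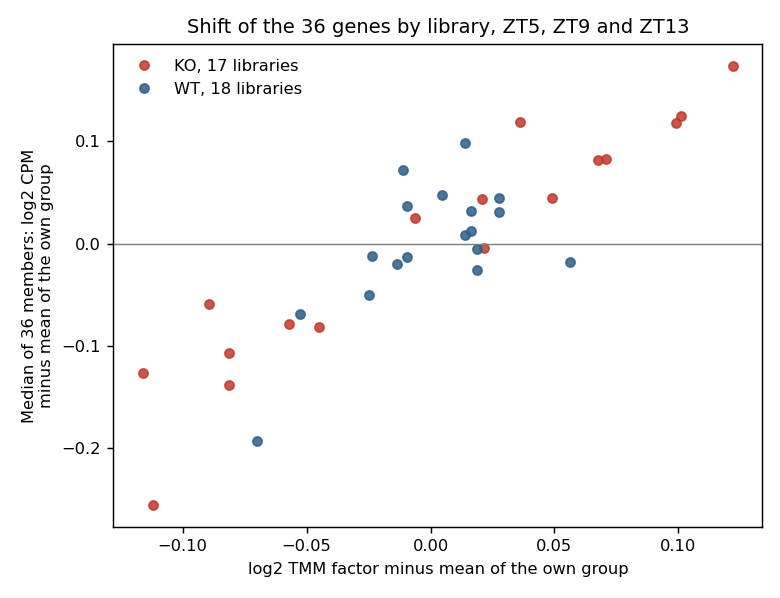
Median over the 36 genes of log2 CPM minus the mean of the library's own group (vertical axis) against the log2 TMM factor minus its group mean (horizontal axis), for 17 KO (red) and 18 WT (blue) libraries of ZT5, ZT9 and ZT13. The KO points spread from -0.256 to 0.174 along a rising line (r = 0.941).

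On the receptor side of the pathway, 9 members carry terms for cell-cell signaling by Wnt, cell surface receptor signaling or, for AAEL009806, endocytosis and the mTOR pathway. The mTOR term was among those that set this group, and the endocytosis term was not. Of these 9, 3 were called lower at ZT5, 3 at ZT9 and 6 at ZT13. Their median log2 fold change was -0.18 at ZT5, -0.29 at ZT9 and -0.22 at ZT13. This group held the 3 members with the lowest mean change over the 3 time points.

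AAEL008847 had the lowest mean change of all members, -1.06. It is listed under Wnt signaling between cells and nervous system development. At ZT5 its level was lowest at 9.79, in the median 13.3 and highest at 14.4 CPM in KO, and 19.6, 25.5 and 34.7 CPM in WT. At ZT9 it ran in KO from 6.48 over 10.35 to 20.6 CPM and in WT from 23.6 over 26.5 to 35.05 CPM. The 5 KO libraries of ZT13 held 13.5, 13.5, 16.3, 12.6 and 13.7 CPM, and the WT libraries 19.3 to 31.4 CPM with a median of 27.3. The groups did not overlap at any of the 3 time points. The log2 fold change was -1.03 at ZT5 (SE 0.13, adjusted p = 8.45e-05), -1.26 at ZT9 (SE 0.22, adjusted p = 0.00102) and -0.90 at ZT13 (SE 0.14, adjusted p = 0.000266), a level in KO of 0.489, 0.419 and 0.537 of that in WT. With the library labelled KO ZT13 replicate 1 put back, the change at ZT13 was -0.56 and was no longer called (adjusted p = 0.115). The counts of that library are those of WT ZT9 replicate 2, in which this gene was at 35 CPM. At ZT1 the WT median was 27.03 CPM and the KO median 11.1 CPM.

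AAEL006832, listed under cell surface receptor signaling and the mTOR pathway, was lower in KO at ZT5 and ZT13. At ZT5 the KO libraries ran from 4.32 over 4.74 to 5.61 CPM and the WT libraries from 6.35 over 7.12 to 9.16 CPM. At ZT13 the KO libraries held 4.22, 4.2, 5.03, 4.83 and 3.75 CPM and the WT libraries 5.89 to 7.92 CPM with a median of 7.14. These groups did not overlap, and the log2 fold changes were -0.63 (SE 0.10, adjusted p = 0.000675) and -0.68 (SE 0.11, adjusted p = 0.000368). At ZT9 the groups overlapped, with 4.83 to 6.66 CPM in KO and 5.29 to 7.77 CPM in WT, and the change of -0.22 was not called (SE 0.11, adjusted p = 0.127). Its interaction with time had the lowest p of the members and was not called (adjusted p = 0.257 in edgeR's test over all genes).

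AAEL008322, under Wnt signaling between cells and multicellular development, was read at low levels, 1.57 to 5.03 CPM at ZT5 and 2.49 to 4.88 CPM at ZT13. KO and WT libraries overlapped at each of the 3 time points. Its log2 fold change was -0.54 at ZT5 (SE 0.19, adjusted p = 0.0471), -0.28 at ZT9 (SE 0.14, adjusted p = 0.148) and -0.49 at ZT13 (SE 0.14, adjusted p = 0.0172). The call at ZT5 was lost with no filter on low counts (adjusted p = 0.0566) and without KO ZT5 replicate 2, 4, 5 or 6 or WT ZT5 replicate 1, 3, 4, 5 or 6 (adjusted p between 0.0533 and 0.104), so it is not firm.

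Among the other members of the receptor side, AAEL003388 was called lower at ZT9 and ZT13, AAEL019790 at ZT9 alone, and AAEL020203 and AAEL027204 at ZT13 alone. AAEL000661 and AAEL009806 were not called at the 3 time points.

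**Figure D3:**
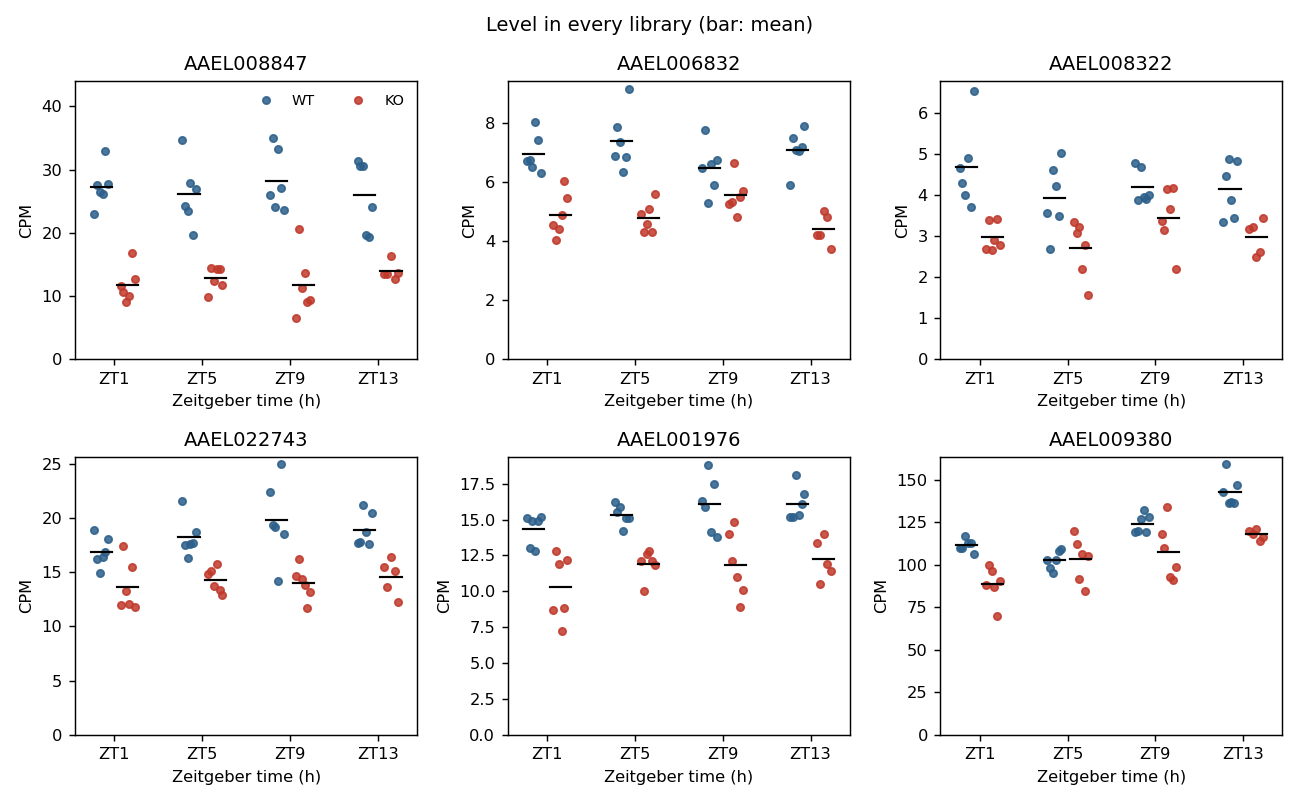
CPM (vertical axis, from 0) of 6 members in every library at ZT1, ZT5, ZT9 and ZT13, with WT in blue, KO in red and a bar at the mean of each group. AAEL008847 separates the lines at ZT5, ZT9 and ZT13, and AAEL009380 does so at ZT13 but not at ZT5.

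The 7 kinases carry terms for protein kinase activity, the activity by which the pathway marks beta-catenin, co-receptors and scaffold proteins. At ZT5, 3 were called lower, at ZT9 4 and at ZT13 5. AAEL001976, a protein serine/threonine kinase also listed under Hedgehog signaling, autophagy and longevity, was called lower at all 3 of these times. Its KO libraries ran from 9.99 over 12.1 to 12.8 CPM at ZT5, and its WT libraries from 14.2 over 15.3 to 16.2 CPM. At ZT9 they ran from 8.9 over 11.55 to 14.8 CPM in KO and from 13.8 over 16.1 to 18.8 CPM in WT. The KO libraries of ZT13 held 13.4, 10.5, 14.01, 11.9 and 11.4 CPM against 15.2 to 18.1 CPM with a median of 15.7 in WT. The groups overlapped at ZT9 only among these time points. The log2 fold changes were -0.37 (SE 0.06, adjusted p = 0.00084), -0.44 (SE 0.12, adjusted p = 0.0134) and -0.39 (SE 0.08, adjusted p = 0.00287).

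AAEL019440, a kinase under the stress response and FoxO signaling, was also called lower at the 3 time points, by -0.29, -0.32 and -0.26 on the log2 scale. AAEL019951, listed under phosphatidylinositol and mTOR signaling, was called lower at ZT9 (-0.42) and ZT13 (-0.45), and at ZT5 its change of -0.30 was not called (adjusted p = 0.0516). AAEL013823, which binds calmodulin, was called lower at ZT5 (-0.20) and ZT13 (-0.28), and AAEL008634, under MAPK, FoxO and Hippo signaling, at ZT9 (-0.22) and ZT13 (-0.17). AAEL000324 and AAEL007662 were not called.

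The 3 phosphoric ester hydrolases are AAEL009380 and AAEL019711, both under inositol phosphate metabolism, and AAEL019485, a calmodulin-binding protein serine/threonine phosphatase. None was called at ZT5, AAEL019485 and AAEL019711 were called lower at ZT9, and all 3 at ZT13. The log2 fold changes at ZT13 were -0.28 for AAEL009380, -0.14 for AAEL019711 and -0.13 for AAEL019485.

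Both members that belong to ubiquitin ligase machinery, which marks proteins for the proteasome, were called lower at each of the 3 time points. AAEL013530, of the cullin-RING ubiquitin ligase complex, ran at ZT5 from 212 over 224 to 227 CPM in KO and from 242 over 244 to 253 CPM in WT. At ZT9 it ran from 212 over 226.5 to 230.5 CPM in KO and from 232 over 242 to 258 CPM in WT. At ZT13 the KO libraries held 242, 228, 242, 233 and 214 CPM, the highest of them at 242.4 CPM just under the lowest WT library at 242.5 CPM (WT median 259, highest 269 CPM). The groups never overlapped, but the changes were small, with log2 fold changes of -0.15 (SE 0.04, adjusted p = 0.00991), -0.12 (SE 0.04, adjusted p = 0.0441) and -0.16 (SE 0.05, adjusted p = 0.0173). AAEL003371, under ubiquitin mediated proteolysis and Hedgehog signaling, changed by -0.21, -0.23 and -0.22.

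The 5 nuclear regulators, with terms for transcription factors, corepression and histone acetylation, held 2 calls at ZT5, 1 at ZT9 and 1 at ZT13. AAEL017391, of a histone acetyltransferase complex, is also listed under the GO term rhythmic process. It was called lower at ZT9 (-0.27, adjusted p = 0.0375) and ZT13 (-0.24, adjusted p = 0.0042). AAEL012233, a DNA-binding transcription factor, was called lower at ZT5 alone (-0.15, adjusted p = 0.0336), as was AAEL005400, listed under negative regulation of transcription and Notch signaling (-0.11, adjusted p = 0.0498). AAEL003539 and AAEL013896 were not called.

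Of the 4 members with terms for GTPases or cell and tissue shape, AAEL015271 and AAEL018342 were called lower at the 3 time points, AAEL006786 at ZT9 alone and AAEL022496 at none. AAEL015271 is listed under MAPK signaling and epithelium development. At ZT5 its KO libraries ran from 24.7 over 27.2 to 28.7 CPM and its WT libraries from 29.8 over 30.9 to 32.2 CPM. At ZT9 the KO libraries ran from 25.5 over 27.01 to 30.2 CPM and the WT libraries from 32.6 over 33.0 to 33.5 CPM. The KO libraries of ZT13 held 27.1, 25.2, 24.2, 27.6 and 20.8 CPM and the WT libraries 29.2 to 35.3 CPM with a median of 31.5. The groups never overlapped, with log2 fold changes of -0.20 (SE 0.05, adjusted p = 0.00516), -0.28 (SE 0.05, adjusted p = 0.00122) and -0.34 (SE 0.07, adjusted p = 0.00234). AAEL018342, listed under the actin cytoskeleton, changed by -0.31, -0.37 and -0.28.

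The last 6 members carry none of the terms that set the other groups. Their terms are KEGG pathways and, for AAEL010433, general terms for regulation of transcription. At ZT5, 3 were called lower, at ZT9 5 and at ZT13 4. AAEL019753 is the only member listed under the fly circadian rhythm term here, beside the Hedgehog, Hippo and FoxO pathways. At ZT5 it ran from 200 over 212 to 232 CPM in KO and from 243 over 254 to 269 CPM in WT. At ZT9 it ran from 190 over 224.5 to 236.3 CPM in KO and from 236.5 over 263 to 275 CPM in WT. At ZT13 the KO libraries held 216, 205, 232, 219 and 195 CPM and the WT libraries 248 to 279 CPM with a median of 258. The groups never overlapped, though at ZT9 they nearly touched. The log2 fold changes were -0.25 (SE 0.05, adjusted p = 0.00174), -0.27 (SE 0.06, adjusted p = 0.00663) and -0.29 (SE 0.05, adjusted p = 0.000843).

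AAEL022743, listed under FoxO signaling, was also called lower at the 3 time points. At ZT5 its KO libraries ran from 12.9 over 14.2 to 15.8 CPM and its WT libraries from 16.3 over 17.65 to 21.6 CPM. At ZT9 the KO libraries ran from 11.7 over 14.1 to 16.2 CPM and the WT libraries from 14.2 over 19.3 to 25.0 CPM. The KO libraries of ZT13 held 15.5, 13.6, 16.4, 15.1 and 12.3 CPM and the WT libraries 17.6 to 21.2 CPM with a median of 18.2. Only the ZT9 groups overlapped, and the log2 fold changes were -0.35 (SE 0.07, adjusted p = 0.00288), -0.50 (SE 0.12, adjusted p = 0.00673) and -0.37 (SE 0.08, adjusted p = 0.00336). AAEL011648 was called lower at ZT5 (-0.28) and ZT9 (-0.49), AAEL010433 and AAEL019932 at ZT9 and ZT13, and AAEL004777 at none.

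The 5 members with the highest mean change were AAEL007662 (-0.03), AAEL005400 (-0.09), AAEL012233 (-0.09), AAEL009806 (-0.09) and AAEL022496 (-0.09). The kinase AAEL007662 held at ZT5 251 to 266 CPM in KO and 264 to 276 CPM in WT, at ZT9 268 to 279 CPM in KO and 266 to 293 CPM in WT, and at ZT13 273 to 278 CPM in KO and 262 to 284 CPM in WT. KO and WT overlapped at each time point, and the 95% interval of its log2 fold change was -0.15 to 0.01, -0.09 to 0.08 and -0.10 to 0.06, so a change of the size seen in AAEL001976 lies outside it. The tissue morphogenesis gene AAEL022496 held at ZT5 17.4 to 26 CPM in KO and 18.2 to 23.2 CPM in WT, at ZT9 12.5 to 22.4 CPM in KO and 19.3 to 25.2 CPM in WT, and at ZT13 19.4 to 22 CPM in KO and 19.1 to 22.6 CPM in WT. Its intervals were wider, -0.22 to 0.25, -0.56 to -0.03 and -0.13 to 0.12, and the groups overlapped throughout. AAEL009806, under endocytosis, held at ZT5 59.4 to 86.8 CPM in KO and 69.3 to 78.9 CPM in WT, at ZT9 56.9 to 79.6 CPM in KO and 67.2 to 86.1 CPM in WT, and at ZT13 63.6 to 80.9 CPM in KO and 70.6 to 78.2 CPM in WT. Its intervals were -0.20 to 0.14, -0.36 to -0.02 and -0.17 to 0.08.

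The transcription factor gene AAEL012233 held at ZT5 628 to 697 CPM in KO and 690 to 793 CPM in WT, at ZT9 689 to 742 CPM in KO and 646 to 776 CPM in WT, and at ZT13 690 to 751 CPM in KO and 703 to 828 CPM in WT. Its groups overlapped at each time point, with intervals of -0.26 to -0.04, -0.13 to 0.09 and -0.20 to 0.00. AAEL005400 held at ZT5 310 to 342 CPM in KO and 340 to 360 CPM in WT, at ZT9 319 to 359 CPM in KO and 356 to 369 CPM in WT, and at ZT13 323 to 337 CPM in KO and 329 to 358 CPM in WT. Its intervals were -0.20 to -0.02, -0.18 to -0.00 and -0.15 to 0.02. These intervals are for single genes and are not adjusted.

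The other genes that the study's lists give under Wnt signaling went both ways. Of them, 15 were listed among genes higher in KO at ZT1, which fixes their direction there. At ZT5, ZT9 and ZT13, 9, 7 and 10 of these 15 were called higher and 0 lower, with medians of 0.17, 0.18 and 0.16. Of all genes tested, 15.5%, 16.3% and 18.6% were called higher at these times. At each of the 3 time points 6 of the 15 were called higher, and at 1 or more 11 were. The shares of all genes called higher at each or at 1 or more were not computed, so these counts have no background beside them. The largest change was that of AAEL025859, with log2 fold changes of 0.85, 0.84 and 1.505, at 2.48 to 4.18 CPM in KO and 0.722 to 1.76 CPM in WT at ZT13. With library totals alone, 6 of these and of 3 further genes, listed by a GO term among genes lower at ZT1, were called higher at 1 or more of the 3 time points, in place of 11. Of those 3 genes, 0 were called lower at ZT5, 2 at ZT9 and 2 at ZT13. Genes under the same pathway term were thus called in both directions, and the counts for the members do not describe the pathway as a whole.

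**Figure D4:**
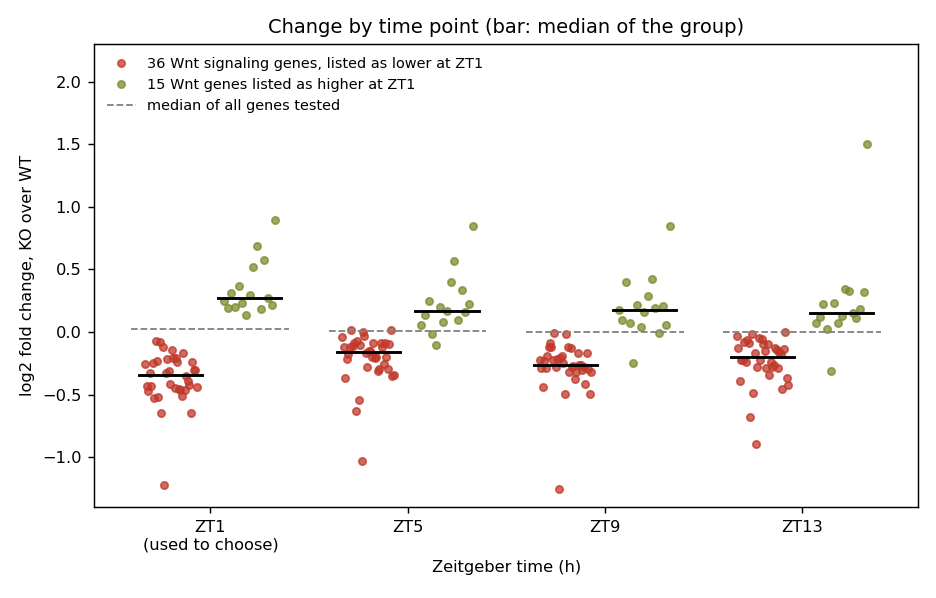
Log2 fold change of KO over WT (vertical axis) at ZT1, ZT5, ZT9 and ZT13 for the 36 genes (red) and for 15 Wnt genes listed as higher at ZT1 (green), with bars at the medians and a dashed line at the median of all genes tested. The direction of both sets at ZT1 is fixed by how they were chosen, and their medians keep to the same sides at ZT5, ZT9 and ZT13.

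Within WT the range of the 3 group means over ZT5, ZT9 and ZT13 was 0.0929 on the log2 scale in the median member and at most 0.476. The same range was not computed for all genes, so it has no background beside it. The highest mean fell at ZT9 in 17 members, at ZT13 in 17 and at ZT5 in 2. In the test over ZT5, ZT9 and ZT13, 1 member was called in WT, against 9.86% of all genes, 0 in KO, against 2.2%, and 0 for the genotype by time interaction, against 0.285%. At an unadjusted p below 0.05 in these tests of edgeR the numbers were 4, 3 and 2. The shares of all genes at that threshold were not computed, so these numbers are not read as effects of time. DESeq2's likelihood ratio test called 2 in WT (AAEL008634 and AAEL009380), 1 in KO (AAEL007662) and 0 for the interaction.

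The member called in WT was AAEL009380, the phosphoric ester hydrolase of inositol phosphate metabolism. Its WT libraries ran from 94.9 over 103 to 109 CPM at ZT5, from 119 over 124 to 132 CPM at ZT9 and from 136 over 140.0 to 159 CPM at ZT13, and the 3 groups did not overlap. Among pairs of time points in WT, 1 member was called higher at ZT9 than at ZT5 (0.793% of all genes), 2 at ZT13 than at ZT5 (3.75%) and 1 at ZT13 than at ZT9 (3.73%), and AAEL009380 is among each of them. The other member called at ZT13 over ZT5 was AAEL008634, by 0.12 on the log2 scale (adjusted p = 0.0324 in edgeR's test). Its test over the 3 time points was not called (adjusted p = 0.0623). The level of AAEL009380 was higher at ZT9 than at ZT5 by 0.27 (adjusted p = 0.00434) and at ZT13 than at ZT9 by 0.20 (adjusted p = 0.0157). From ZT5 to ZT13 it was higher by 0.47 (SE 0.05, adjusted p = 2.34e-06). At ZT1 the WT median of AAEL009380 was 111.5 CPM.

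In KO the level of AAEL009380 ran from 84.8 over 105.5 to 120.2 CPM at ZT5 and from 91.1 over 104 to 134 CPM at ZT9, and the 5 libraries of ZT13 held 120, 118, 121, 114 and 116 CPM. These groups overlapped, and the time test in KO was not passed. KO and WT did not differ beyond their spread at ZT5 (log2 fold change 0.00, 95% interval -0.16 to 0.17), and at ZT13 every KO library was below every WT library (-0.28, SE 0.05, adjusted p = 0.000604). The interaction with time was not called (adjusted p = 0.512 in edgeR's test over all genes).

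**Figure D5:**
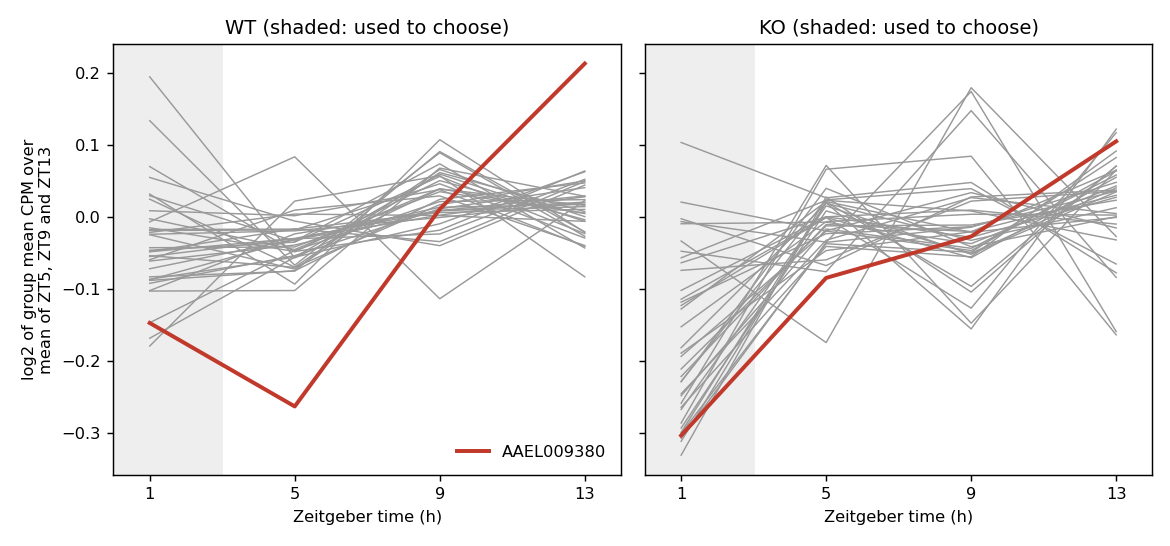
Group mean CPM of each of the 36 genes on a log2 scale, relative to its mean over ZT5, ZT9 and ZT13 (vertical axis), by Zeitgeber time in WT (left) and KO (right), with AAEL009380 in red. In WT this gene runs from its lowest mean at ZT5 to its highest at ZT13, and the shaded ZT1 values took part in choosing the members.

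The ZT1 levels took part in choosing the members and are described only. The KO mean at ZT1 lay below the mean of the later KO groups in 34 members, with a median difference of -0.19 on the log2 scale. In WT this was so in 28 members, with a median difference of -0.05.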

How the data were processed

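Reads of whole-body RNA from pools of females were trimmed, aligned and counted by the authors. Their processing notes name FastQC 0.11.9, Trim Galore 0.6.6, HISAT2 2.2.1, SAMtools 1.11 and HTSeq 0.11.3, and the paper's methods name the VectorBase genome AaegL5_2. What the authors deposited are raw counts of reads by gene, 1 file for each of 48 libraries, with no normalization. Use of strand in counting is not stated in the sources read, which makes values of overlapping genes and of close copies uncertain. The 5 lines that sum reads outside genes were left out, which left 18.4% to 31.7% of a library's total on genes. Counts on genes ran from 10670669 to 33232780.

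KO was compared with WT within each time point with edgeR 4.0.16 (limma 3.58.1, R 4.3.3), using TMM factors, filterByExpr, the quasi-likelihood test and Benjamini-Hochberg adjustment over all genes tested. Time over ZT5, ZT9 and ZT13 and its interaction with genotype were tested in the same way. The steps were tested on simulated data with known changes. The planted changes were larger than those of most members, so the simulation does not cover small changes. P-values measure the spread between pools, and nothing used here says whether the pools came from separate rearings.

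Members and lists were chosen with earlier results of these data known. Members given with values by library are the 5 lowest and 5 highest in mean change over ZT5, ZT9 and ZT13, those called for time in WT and, added after their values were seen, those whose groups never overlapped. Alternatives were DESeq2 1.42.0, its size factors, no filter, the replicate number as a block, 1 fit of 47 libraries, library totals alone and libraries left out. Of the identifiers of the 36 members, 0 matched the reference table of names, so no names, sequences or coordinates are given. The planned markers of other cell types were not used here. The shared counts of the library left out were found for all 19804 genes.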

Additional observations from a re-analysis of the deposited data

Results flagged for a closer look

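Within the groups of 5 or 6 libraries, 6 single values among 112 groups of the 14 members listed by library lay far from the rest of their group, by a rule that flags about 1 in 20 groups by chance. AAEL001976 in KO ZT5 replicate 2 was at 9.99 CPM, below the other 5 at 11.8 to 12.8 CPM. AAEL013530 in KO ZT5 replicate 6 was at 212 CPM, below the others at 222 to 227 CPM. AAEL008847 in KO ZT13 replicate 4 was at 16.3 CPM, above the others at 12.6 to 13.7 CPM. AAEL007662 was at 293 CPM in WT ZT9 replicate 4, above the others at 266 to 276 CPM, and at 262 CPM in WT ZT13 replicate 6, below the others at 276 to 284 CPM. AAEL009806 in WT ZT9 replicate 4 was at 67.2 CPM, below the others at 82.1 to 86.1 CPM.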

How the results depend on the processing

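With DESeq2 the members called lower at ZT5, ZT9 and ZT13 numbered 19, 24 and 24, with its size factors in edgeR 14, 19 and 23, with no filter on low counts 12, 12 and 20, and with 1 fit of 47 libraries 15, 28 and 19, in place of 15, 20 and 23. With 1 library left out they ranged from 10 to 21, 10 to 26 and 19 to 25, and those called higher stayed at 0. With the library labelled KO ZT13 replicate 1 put back, which holds the counts of WT ZT9 replicate 2, 13 were lower at ZT13. Time in WT called 2 members and time in KO 1 under DESeq2. With library totals alone 6 other pathway genes were called higher, in place of 11. Replicate numbers did not pair the libraries: same-numbered deviations correlated between -0.111 and 0.121, and in 3 of 23 pairs a library correlated best with its own number. The replicate block gave 12, 14 and 17 members lower, a loss that does not speak of a weaker effect. Calls over all genes, in both directions, moved as well. At ZT5 they were 3636 of 11737 genes in the fit used above, 2975 of 11737 with the replicate block and 3466 of 16871 with no filter. The share of all genes called lower was not computed for each alternative, so these member counts have no background beside them. Among the named members' fold changes, 517 fits kept side and direction, 32 lost a call, 20 gained one and 25 changed sign. The latter were values near 0. AAEL009380 at ZT5 was at -0.0053 with the replicate block and -0.080 with library totals alone, and from -0.048 to 0.050 with 1 library left out. AAEL022496 at ZT5 was at -0.062 with library totals alone, and with 1 library left out it ran from -0.060 to 0.060 there and from -0.029 to 0.022 at ZT13. Likewise AAEL009806 at ZT5 ran from -0.097 to 0.014, AAEL012233 at ZT9 from -0.046 to 0.0031 and AAEL007662 at ZT9 from -0.015 to 0.015. Of the 54 alternative fits of each, AAEL001976 and AAEL022743 kept their calls in all 54, and AAEL008847 in 53. For genes read at under 10 CPM, such as AAEL008322, the counts limit what small changes can be called.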
